A study of Homo sapiens with 6 samples.

Results

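A549 is an established epithelial line grown from a human lung adenocarcinoma, a form of non-small cell lung cancer. The baseline transcriptome of this line was read from 3 libraries that carried a control guide, sgControl replicates 1, 2 and 3, labelled wild type, out of 6 libraries in the study. The other libraries carried a guide against the histone H2A gene H2AC19 and were not used here. All 3 control libraries came from cells kept in RPMI-1640 medium with fetal bovine serum, and nothing in the labels says whether they were separate cultures, so the spread given below may be technical. Of 62700 genes in the table, 12083 reached an FPKM of 1 or more in all 3 control libraries, and these are the expressed genes described here. FPKM counts sequenced fragments scaled to a length for each gene and to the size of the library. Most low values gave whole reads with the merged length of all annotated exons of a gene, which can exceed that of any transcript. Levels of different genes are compared per unit of this length, so a gene with long merged exons can be listed low. A single group has no contrast, and no test was made; each gene is given by its value in the libraries or by its mean ± SD (n = 3).

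Lung adenocarcinoma arises from epithelial cells of the distal lung, where type 2 alveolar cells make surfactant and type 1 cells form the gas exchange surface. Tumours of this kind often depend on signalling from receptor tyrosine kinases through RAS to the kinases RAF, MEK and ERK. Many also keep the transcription factor NRF2 active, which is normally bound by KEAP1 and sent for degradation and which drives genes for glutathione, thioredoxin, NADPH and iron handling. A549 is known to carry changes in KEAP1, STK11, SMARCA4 and CDKN2A, among other genes. The table holds levels and no sequence, so these changes were not examined.

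The libraries were alike in size, with 36255807, 39520141 and 40570759 reads in replicates 1, 2 and 3 as recovered from the spacing of low FPKM values. Mitochondrial genes held 31.1, 29.6 and 30.03% of the summed FPKM. The expressed genes included 10361 protein-coding genes, and 12733, 12749 and 12750 genes of all kinds reached the threshold in the single libraries. H2AC19, the gene targeted elsewhere in the study, was listed at 0 in all 3 control libraries, so its level gives no check of the labels. Of 19818 nuclear protein-coding genes, 10348 were expressed in all 3 libraries, which is 52.2%, and this share is the background for every list below. The lists were chosen with earlier results of these data known, so their shares are descriptions only. A further 5932 genes (29.9%) were under 0.1 FPKM in all 3 libraries, of which 3080 were at 0. At the high end, 3653 had a mean of 10 or more, 207 of 100 or more and 5 of 1000 or more. The median over all nuclear protein-coding genes was 1.41 FPKM, and 6.62 FPKM over those that were expressed.

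As listed, the most abundant nuclear protein-coding genes were for iron storage, the actin cytoskeleton, glycolysis, retinoid and lipid metabolism, and a chemokine. FTL, the ferritin light chain (chromosome 19, 48965301 to 48966878, GRCh38), stood first at 4520, 4361 and 4269 FPKM in replicates 1, 2 and 3. TMSB10, an actin-binding thymosin, followed at 2176, 2242 and 2272 FPKM, and ALDH1A1, which oxidises retinal and other aldehydes, at 2077, 2058 and 2108 FPKM. The ranges of TMSB10 and ALDH1A1 did not overlap, and both lay far above the next gene. GAPDH, a glycolytic enzyme, had 1140, 1295 and 1249 FPKM, and ACTG1, a cytoplasmic actin, 1082, 1105 and 1087 FPKM. KRT81 and SCD came next, with means of 966 ± 11.97 and 955 ± 12.2 FPKM and ranges that overlapped. KRT81 is a hair-type keratin and SCD is the desaturase that makes monounsaturated fatty acids.

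Below these the order was close. Of the 24 pairs of neighbours among the first 25 genes, 13 had overlapping ranges and so cannot be placed in order. CXCL5, a chemokine that attracts neutrophils, had 681, 633 and 628 FPKM and stood level with the actin-binding TMSB4X (641 ± 17.0) and the actin ACTB (633 ± 21.6). The ferritin heavy chain FTH1 had 579 ± 35.4 FPKM, although 62.4% of its exonic length overlaps other annotated genes. The aldose reductase AKR1B1 had 562 ± 41.1 FPKM and the lactate dehydrogenase LDHA 561 ± 19.4. Other glycolytic enzymes in this group were ENO1 (473 ± 18.2) and PKM (449 ± 10.52). The ribosomal protein genes RPL8 (450 ± 7.15), RPS6 (449 ± 0.602) and RPS2 (416 ± 8.08) were among the 25 too. The chaperone HSP90AB1 (435 ± 7.81), thioredoxin TXN (422 ± 4.599), the calcium-binding proteins S100A4 (407 ± 23.2) and S100A11 (402 ± 16.7) and the lysosomal PSAP (379 ± 6.24) lay in the same range. The levels of TMSB4X and RPS2 are uncertain, because close copies of these 2 genes were listed higher, as given below. EEF1A1 and RPL13A were listed outside the 25, at 363 and 195 FPKM, while copies of them had 2337 and 1789. Which genes are among the 25 is therefore uncertain too. Together the 25 genes held 9.92% of the FPKM of nuclear genes.

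**Figure D1:**
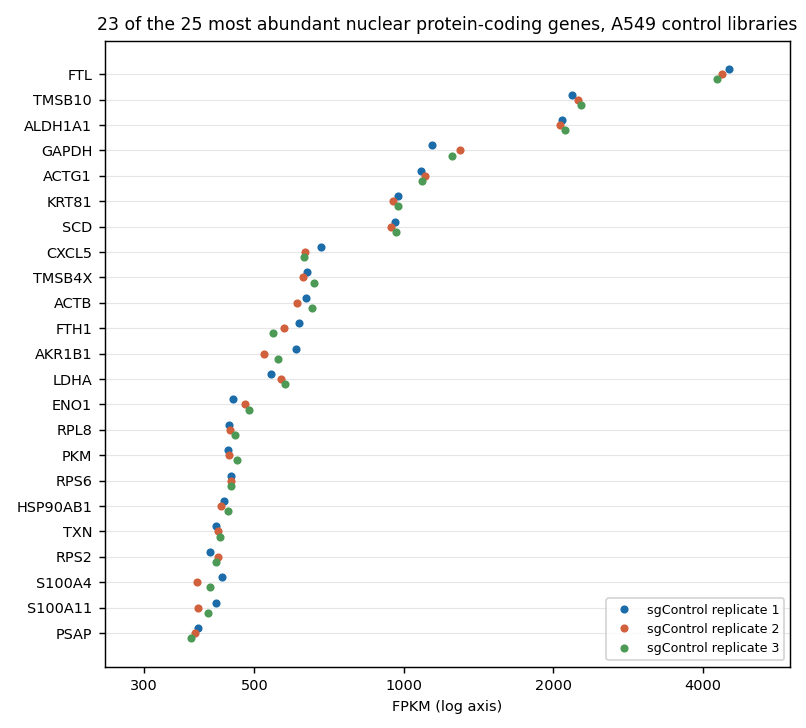
FPKM (log axis) of 23 of the 25 most abundant nuclear protein-coding genes, with 1 point for each of the 3 control libraries; the other two are not reported here. FTL lies at 4269 to 4520 in all 3 libraries, and the points of TMSB10, at 2176 to 2272, lie to the right of those of ALDH1A1, at 2058 to 2108.

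Among long noncoding RNAs, NEAT1, the scaffold of nuclear paraspeckles, had 159, 151 and 146 FPKM. NORAD, a cytoplasmic RNA that binds Pumilio proteins, had 97.1, 94.0 and 95.4 FPKM. IGFL2-AS1 had a mean of 47.7 ± 6.32 FPKM, the snoRNA host gene SNHG29 39.6 ± 0.861 and SNHG1, also a snoRNA host, 28.2 ± 0.991. RN7SL1, the RNA of the signal recognition particle, was listed at 51.2 ± 7.89 FPKM, with all of its length shared with another annotated gene.

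Copies of genes held a large part of the table. Processed pseudogenes are copies of messenger RNAs inserted into the genome, often close in sequence to the gene they came from. They held 17.99 to 18.08% of the nuclear FPKM in the 3 libraries, against 78.6 to 78.8% for protein-coding genes. Of the 100 most abundant nuclear genes, 35 were processed pseudogenes. In all 660 were expressed and 107 had a mean of 50 FPKM or more. Of these 107, 95 had a parent gene in the table by symbol, 76 of the 95 were listed above that parent, and 18 were at 10 times its level or more. In 42 of the 95 pairs the parent was a ribosomal protein gene. All these shares and comparisons are of FPKM, per unit of length, and not of reads. A short copy can be listed above a longer parent that holds more reads.

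RPL39P3 was listed at 2618, 2566 and 2555 FPKM, and its parent RPL39, a small ribosomal protein, at a mean of only 4.82 ± 0.306, a ratio of 536. EEF1A1P5 had 2337 ± 22.8 FPKM and EEF1A1, the elongation factor that brings aminoacyl-tRNA to the ribosome, 363 ± 1.84. PPIAP22 had 1872 ± 31.4 FPKM and the cyclophilin gene PPIA 65.4 ± 2.05. RPS28P7 had 512 ± 21.7 FPKM and RPS28 1.02 ± 0.0731. How reads that match both copies were assigned is not given in the sources used here, so the level of such a parent gene is uncertain and can be low where its copies are high.

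**Figure D2:**
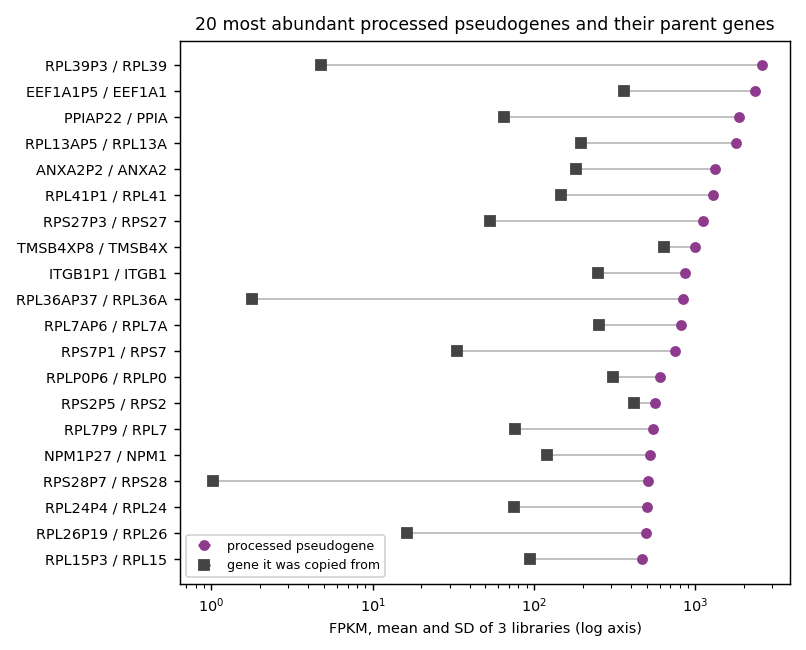
Mean FPKM and SD (n = 3, log axis; most SDs are smaller than the symbols) of the 20 most abundant processed pseudogenes (circles) and of the gene each was copied from (squares). In all 20 pairs the pseudogene lies to the right of its parent, from 1.34 times for RPS2P5 to 536 times for RPL39P3.

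A second limit touched low values. Exons of many protein-coding genes overlap those of another gene on either strand. Of genes with no such overlap 48.6% were expressed, and of those with an overlap of up to 10% and of 10 to 50% of their exonic length 66.3 and 58.5% were. Of genes with 50 to 90% overlap 16.8% were expressed, and of those with 90 to 100% 0.816% (4 of 490). Of these 490 genes 393 were at 0. Genes below that are listed at or near 0 are therefore given with their overlap where it is 50% or more.

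The tumour line kept a simple-epithelial keratin set beside mesenchymal genes. Of 16 epithelial genes, 11 were expressed (68.8%, against 52.2% of all nuclear protein-coding genes). KRT18 and KRT8, the keratin pair of simple epithelia, had 306, 298 and 303 and 245, 220 and 235 FPKM, and KRT7, typical of lung epithelium, had 241, 248 and 242. The mucin-type surface protein CD24 had a mean of 180 ± 8.95 FPKM, KRT19 59.9 ± 2.22 and the tight-junction protein CLDN1 56.3 ± 3.29. E-cadherin, CDH1, stood at 9.59, 8.81 and 8.96 FPKM, and the adhesion molecule EPCAM close to the threshold, at 1.38, 1.32 and 1.14. The epithelial splicing regulators ESRP1 (0.138 ± 0.0434) and ESRP2 (0.0635 ± 0.0384) were under 1 FPKM in all 3 libraries. The 5 genes taken here to check the epithelial label were KRT8, KRT18, KRT19, CDH1 and EPCAM. All were at 1 FPKM or more in every library, with EPCAM the lowest. They are part of the 16 genes, and the check does not cover members such as ESRP1 and ESRP2. Only 9 of 55 keratin genes were expressed, namely KRT81, KRT18, KRT7, KRT8, KRT19, KRT80, KRT10, KRT86 and KRT15.

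Of 12 mesenchymal genes, 10 were expressed (83.3%). The intermediate filament vimentin, VIM, had 123, 131 and 124 FPKM, S100A4 430, 384 and 406, and fibronectin, FN1, 52.5, 45.7 and 47.1. N-cadherin, CDH2, had 15.8, 16.4 and 17.0 FPKM and lay above E-cadherin in every library. The transcriptional repressors ZEB1 (5.24 ± 0.198) and SNAI2 (3.78 ± 0.685) were expressed, ZEB2 (0.491 ± 0.0406) was under the threshold, and the cadherin CDH11 was at 0.0716 ± 0.0154 FPKM. In bulk RNA, fewer cells of a type and less RNA per cell cannot be told apart, and this holds for every list here.

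Differentiated lung markers were mostly near 0. Of 12 type 2 alveolar genes, 2 were expressed: LPCAT1, which remodels surfactant phospholipid (19.4, 22.98 and 21.8 FPKM), and ABCA3, the lamellar body lipid transporter (5.62, 5.41 and 5.26). The surfactant protein genes were all under 0.1 FPKM in every library: SFTPB averaged 0.0427, SFTPD 0.0425 and SFTPC 0.00288, and SFTPA1 and SFTPA2 were listed at 0. NKX2-1, the lung lineage transcription factor, had 0.0610, 0.0480 and 0.0389 FPKM, and the phosphate transporter SLC34A2 was listed at 0. Of 9 type 1 alveolar genes 4 were expressed, led by the caveolins CAV1 (121 ± 6.79) and CAV2 (22.2 ± 0.734), with EMP2 at 3.93 ± 0.467 and AGER at 1.25 ± 0.274. The type 1 markers AQP5, HOPX and PDPN were listed at 0.

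Markers of the airway were low too. None of 10 airway secretory genes was expressed in all 3 libraries; the highest were the transcription factor SPDEF, at 1.60, 0.925 and 1.18 FPKM, and the mucin MUC5B, at 1.26, 0.848 and 0.896, which straddled the threshold. None of 8 ciliated and none of 8 neuroendocrine genes was expressed, and FOXJ1, the regulator of ciliation, averaged 0.00652 FPKM while INSM1 and NEUROD1 were listed at 0. Of 8 basal and squamous genes, TP63 (2.79 ± 0.171) and KRT15 (2.02 ± 0.0903) were expressed, whereas KRT5 averaged 0.0121 and KRT14 was listed at 0.

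Gut and liver transcription factors were present in part. Of 21 endoderm factors 9 were expressed (42.9%, beside 52.2% of all genes). KLF5 was highest at 44.0, 45.6 and 43.1 FPKM. FOXA2, a pioneer factor of endoderm, had 13.4, 12.4 and 13.0 FPKM, the epithelial ETS factor ELF3 12.2, 13.5 and 12.7, and the nuclear receptor NR5A2 11.9, 10.7 and 11.6. The ranges of FOXA2 and ELF3 overlap, and NR5A2 lies below both. SOX9 (8.25 ± 0.945), EHF (4.08 ± 0.383), HNF4A (2.48 ± 0.142) and GATA6 (2.12 ± 0.436) were also expressed, and FOXA1 lay just below at 0.950, 0.906 and 0.687 FPKM.

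Of 32 plasma protein genes of the hepatocyte, 8 were expressed (25%). Complement C3 had 20.25, 19.98 and 19.95 FPKM, and the fibrinogen chains FGA, FGG and FGB had means of 7.77 ± 0.617, 3.21 ± 0.775 and 2.20 ± 0.546. The fibrinogen-like hepatokine FGL1 stood at 6.70 ± 0.848 and vitronectin, VTN, at 3.15 ± 0.129. Albumin, ALB, was at 0.113, 0.0369 and 0 FPKM.

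Genes that mark cells from outside the epithelium were nearly all under the threshold. None of 8 endothelial and none of 5 erythroid genes was expressed, and their summed FPKM stayed within 0.166 to 0.224 and 0.0120 to 0.0865. Of 9 leukocyte genes, CD14 alone was expressed (1.94 ± 0.306), with CD3D, CD3E and MS4A1 listed at 0 and PTPRC at 0.00451 on average. Of 9 fibroblast genes, the proteoglycan LUM alone was expressed in all 3 libraries (2.81 ± 0.299), while COL1A2 averaged 0.000850 FPKM and THY1 had 1.18, 1.09 and 0.972.

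Nearly all NRF2 target genes were expressed. Of 42 targets 40 were at 1 FPKM or more in all 3 libraries (95.2%), 34 had a mean above 10, and the median over the 42 was 58.3 FPKM, beside 1.41 over all nuclear protein-coding genes. The members were chosen with earlier results of these data known, so this share and median are in part set by the choice. The 42 together held 11678, 11107 and 11184 FPKM. NRF2 binds an antioxidant response element, written here as TGACNNNGC, and short windows around these letters from RefSeq promoters (GRCh38.p14) are shown for targets of different roles. Capitals mark the 9 matching letters, and each window reads 5′ to 3′ on the strand named. TXNRD1, thioredoxin reductase, is at chr12:104215761-104215789 on the minus strand, and PGD, which makes NADPH in the pentose phosphate pathway, at chr1:10398853-10398881 on the minus strand. GCLM, a subunit of the first enzyme of glutathione synthesis, is at chr1:93909446-93909474 on the plus strand, ME1, malic enzyme, at chr6:83431170-83431198 on the minus strand, and GPX2, a glutathione peroxidase, at chr14:64942849-64942877 on the plus strand. CBR1, carbonyl reductase, is at chr21:36069855-36069883 on the minus strand and PIR, pirin, at chrX:15493289-15493317 on the plus strand.
TXNRD1: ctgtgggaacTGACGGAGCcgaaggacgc
PGD: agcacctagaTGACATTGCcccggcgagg
GCLM: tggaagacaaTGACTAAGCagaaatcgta
ME1: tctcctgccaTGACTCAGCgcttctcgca
GPX2: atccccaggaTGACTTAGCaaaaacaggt
CBR1: ccagctagccTGACTTTGCagaacccgca
PIR: agcctcaccgTGACTCAGCgcttcgcggc

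The letters were found on either strand of a 300-base promoter window in 11 of the 30 NRF2 targets with a RefSeq promoter (36.7%). Of all 15301 protein-coding genes with such a promoter 18.0% had them, and of the 831 at 30 FPKM or more in all 3 libraries 22.4%. A gene can have more than 1 window, as TXNRD1 did, and the number of windows was not compared. A match of these letters is a description of the sequence, not a bound site, and the other targets may hold sites outside the window.

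Iron and aldehyde genes led the NRF2 targets, since FTL and ALDH1A1 were also the first and the third of all nuclear protein-coding genes. Of the thioredoxin branch, TXN had 418, 422 and 427 FPKM, TXNRD1 368, 370 and 354, and the peroxiredoxin PRDX1 296, 271 and 298. TXN lay above TXNRD1, and TXNRD1 above PRDX1, in every library. SRXN1, which repairs peroxiredoxins, was far lower at 1.74 ± 0.164 FPKM, with 85.0% of its exonic length overlapped by another gene. The quinone reductase NQO1 had 329, 319 and 327 FPKM.

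Enzymes that make NADPH were expressed, with PGD at 330, 301 and 311 FPKM, IDH1 at 89.5, 86.5 and 85.2 and ME1 at 33.7, 30.7 and 32.0. Their ranges did not overlap, so the order of these 3 held in every library. TKT (83.4 ± 0.983) and TALDO1 (55.7 ± 1.22), of the same sugar phosphate pathway, were between them. Of the genes of glutathione synthesis, the cystine carrier SLC7A11 had 47.5 ± 1.67 FPKM, GCLM 32.6 ± 1.03 and the catalytic subunit GCLC 22.6 ± 0.785. Glutathione reductase, GSR, had 84.1 ± 2.74.

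The aldo-keto reductases AKR1B10 (249 ± 17.4), AKR1C2 (245 ± 25.2), AKR1C3 (187 ± 15.9) and AKR1C1 (68.4 ± 9.07) were all expressed. AKR1C1 and AKR1C2 are close copies, and the split of reads between them is uncertain. The export pumps ABCC3 (71.8 ± 2.85), ABCC2 (61.0 ± 2.44) and ABCC1 (37.9 ± 0.608), which carry drug and glutathione conjugates, were expressed as well. Heme oxygenase HMOX1, which answers to other signals too, had 49.7, 53.2 and 44.8 FPKM. The 2 targets that were not expressed were the alcohol dehydrogenase ADH7, listed at 0, and the glucuronosyltransferase UGT1A6, at 0.0802, 0.0294 and 0.115 FPKM, with 64.4% of its exonic length overlapped by the other genes of its locus.

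All 9 regulators of the pathway were expressed, with a median of 11.6 FPKM. NFE2L2, which encodes NRF2, had 10.54, 10.4 and 10.2 FPKM and KEAP1 10.7, 10.4 and 10.0, so their ranges overlapped. SQSTM1, which binds KEAP1, had 100, 99.9 and 91.8 FPKM. CUL3, the ubiquitin ligase scaffold that works with KEAP1, had 5.12 ± 0.329, and the small MAF partners MAFG, MAFK and MAFF 20.6 ± 0.832, 20.4 ± 4.38 and 5.41 ± 0.449. The repressor BACH1, which competes for the same elements, had 15.0 ± 1.94.

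**Figure D3:**
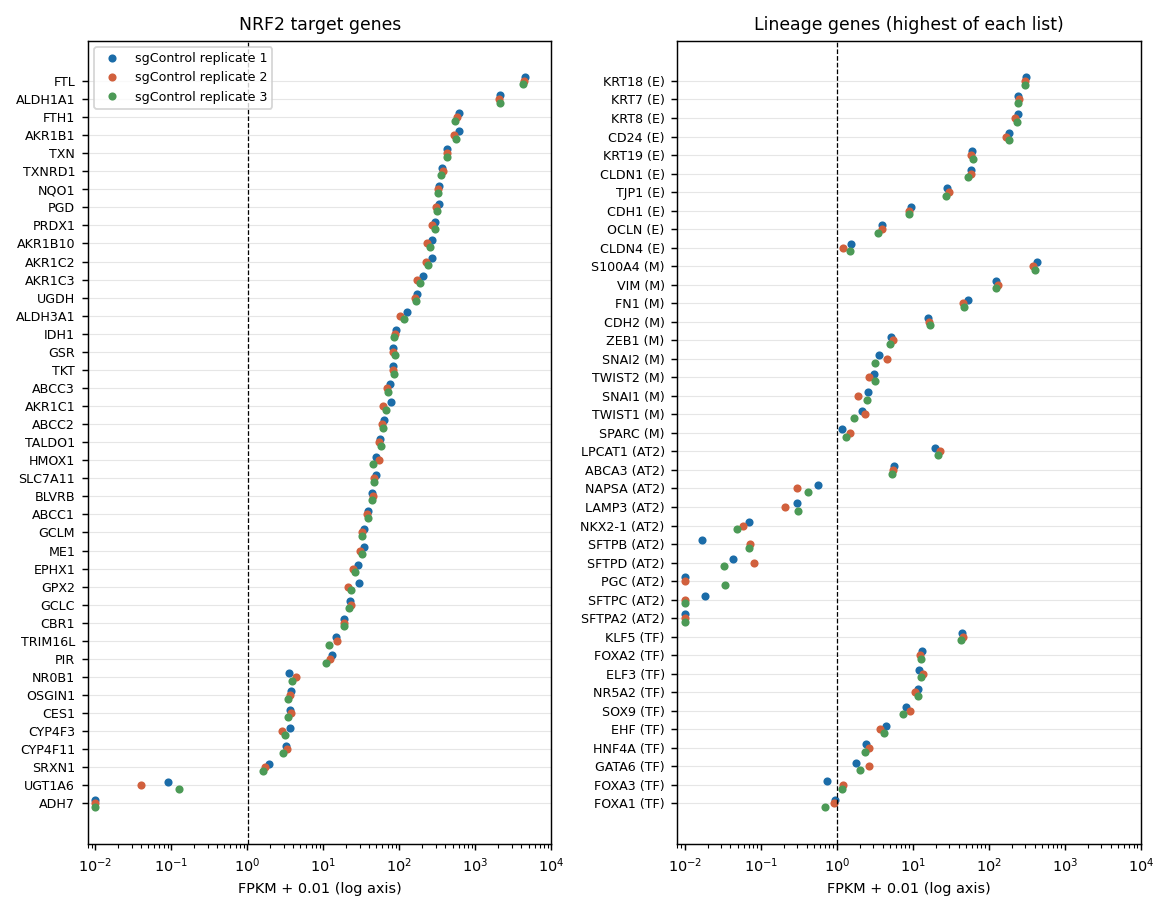
FPKM + 0.01 (log axis) in each control library for 41 of the 42 NRF2 targets (left) and for the highest members of the epithelial (E), mesenchymal (M), type 2 alveolar (AT2) and endoderm transcription factor (TF) lists (right); the dashed line marks 1 FPKM. On the left 39 genes lie to the right of the line in all 3 libraries, and of the 10 AT2 genes on the right LPCAT1 and ABCA3 alone do.

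Receptors at the head of the RAS pathway fell into a few high genes and many low ones. Of 26 receptor tyrosine kinases 11 were expressed (42.3%). MET, the receptor for hepatocyte growth factor, was highest at 94.5, 100 and 100 FPKM, followed by the ephrin receptor EPHA2 (73.6, 74.2 and 71.3), AXL (56.9, 67.7 and 59.8) and the EGF receptor EGFR (50.5, 52.7 and 49.7). These 4 ranges did not overlap. IGF1R had 21.0 ± 0.683 FPKM and DDR1 7.08 ± 0.137, and ERBB2, at 5.09 ± 0.182, was lower than EGFR in every library. KIT, ERBB4 and FLT1 were listed at 0, and RET, FGFR2 and KDR averaged 0.0871, 0.0814 and 0.0392 FPKM. ROS1, at 0.971, 0.996 and 1.08 FPKM, lay at the threshold.

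Inside the cell 16 of 17 genes of the RAS-ERK cascade were expressed, all but the scaffold KSR2 (0.164 ± 0.0217). The adaptors SHC1 (55.3 ± 1.23) and GRB2 (30.9 ± 0.805) were highest. The small GTPase NRAS had 27.4, 29.1 and 29.5 FPKM and HRAS 8.48, 9.91 and 9.36, so NRAS lay above HRAS in every library. The kinase BRAF (1.58 ± 0.0393) was lower in FPKM than ARAF (12.1 ± 0.499), but its merged exons are longer (23432 against 3535 bases). Their reads were not compared. The ERK gene MAPK3 had 7.75 ± 0.518 FPKM.

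All 17 genes that ERK signalling is known to raise were expressed, with a median of 15.8 FPKM. Cyclin D1, CCND1, had 84.0, 84.3 and 89.6 FPKM, the nuclear phosphatase DUSP4 83.0, 80.3 and 86.3, and DUSP5 63.2, 82.9 and 63.9. PHLDA1 (66.8 ± 2.84), the AP-1 subunit FOSL1 (33.5 ± 1.78), IER3 (31.1 ± 1.79) and the ETS factors ETV5 (19.9 ± 0.380) and ETV4 (15.8 ± 0.350) followed. DUSP6, the cytoplasmic ERK phosphatase, was lower at 8.53 ± 0.403, and SPRY1, a feedback inhibitor, lowest at 1.68 ± 0.439. MYC stood at 18.1, 19.1 and 18.5 FPKM, while MYCL (0.302 ± 0.0557) and MYCN (0.0186 ± 0.0179) were under the threshold.

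Of 20 lung tumour suppressor genes 16 were expressed. RB1, which holds back the cell cycle, had 11.7, 12.7 and 12.7 FPKM and the splicing regulator RBM10 15.1, 14.9 and 14.3. STK11, the kinase upstream of AMPK, was lower at 2.76, 2.86 and 3.11 FPKM. SMARCA4, an ATPase of the SWI/SNF chromatin remodeller, was at the threshold with 1.12, 1.06 and 0.963 FPKM, below its paralog SMARCA2 at 3.33, 2.98 and 3.25. It was not counted as expressed, because replicate 3 fell short. In a separate list of 20 p53 target genes 19 were expressed. CDKN1A, the p21 inhibitor of cyclin-dependent kinases, had 71.3, 77.8 and 67.5 FPKM, and the death receptor gene TNFRSF10B 93.0 ± 4.61. The death receptor gene FAS, of the same p53 list, was under the threshold at 0.753 ± 0.0520. All 12 YAP targets were expressed, from ARHGEF17 (2.49 ± 0.188) to AXL, with CRIM1 at 43.9 ± 0.401, CCN1 at 15.2 ± 0.753 and CCN2 at 10.97 ± 0.899.

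The 9p21 locus held a group of genes at or near 0 between expressed neighbours. CDKN2A, which encodes the cell cycle inhibitor p16 and the protein ARF (chromosome 9, 21967753 to 21995301, GRCh38), had 0, 0.00651 and 0 FPKM. CDKN2B, which encodes the related inhibitor p15 (22002903 to 22009363), was listed at 0 in all 3 libraries. A count of 3 read pairs would have given 0.0382 FPKM for CDKN2A and 0.0408 FPKM for CDKN2B, as a limit from counting error only. MTAP, the methylthioadenosine phosphorylase next to them (21802543 to 21937651), had 0.0171, 0.0209 and 0.0119 FPKM. The long noncoding CDKN2B-AS1, whose first exon lies close to that of ARF, was higher at 0.473, 0.471 and 0.380 FPKM, but below the threshold.

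On the centromeric side the noncoding gene ENSG00000236921 (22203990 to 22214672) had 16.2, 17.1 and 17.1 FPKM, and DMRTA1 (22446841 to 22455740) 1.83, 1.78 and 1.85. On the other side IFNE, an interferon of epithelia (21480839 to 21482313), had 7.09, 7.36 and 5.75 FPKM, KLHL9, an adaptor of a ubiquitin ligase (21329671 to 21335380), 12.5, 13.0 and 13.2, and FOCAD, a protein of focal adhesions (20658309 to 20995955), 8.49, 8.65 and 8.90. MIR31HG, the host of a microRNA (21455642 to 21559669), had 1.43, 1.17 and 1.25 FPKM. Within 1.5 Mb of CDKN2A these 4 protein-coding genes, FOCAD, KLHL9, IFNE and DMRTA1, were the expressed ones of 24, and within 5 Mb 16 of 42 were. Of 13 interferon alpha genes in the stretch 12 were listed at 0, and IFNA1 had 0.597, 0.173 and 0.449 FPKM. Levels do not tell a missing gene from a silent one.

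**Figure D4:**
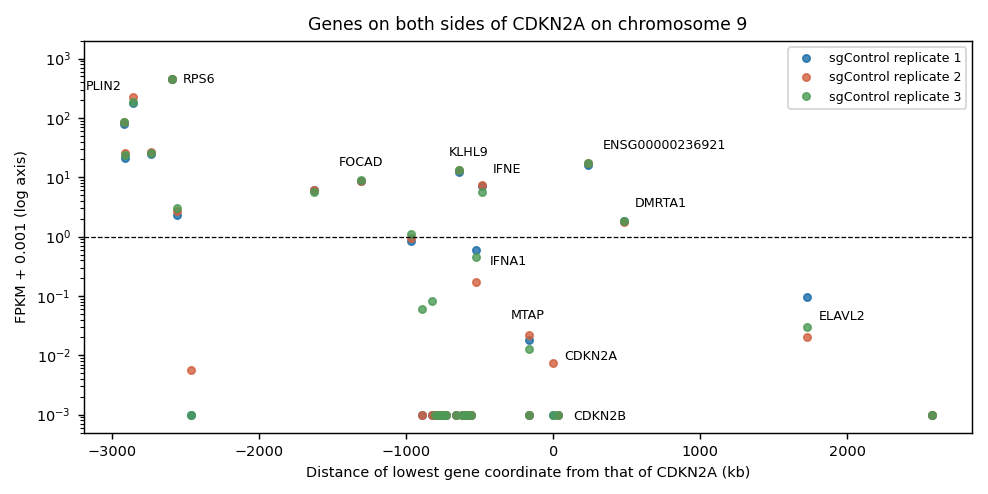
FPKM + 0.001 (log axis) in each control library for the protein-coding genes within 3000 kb of CDKN2A, and for the noncoding ENSG00000236921, by distance from CDKN2A; the dashed line marks 1 FPKM. CDKN2A, CDKN2B and MTAP lie under 0.03, between IFNE on the left and ENSG00000236921 on the right, both above the line.

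Among the secreted factors listed here, the chemokine CXCL5, given above, was highest. Of 30 cytokines and chemokines 17 were expressed (56.7%). CXCL8, which attracts neutrophils as CXCL5 does, had 118, 115 and 107 FPKM, and CXCL2 and CXCL1 had 56.8 ± 4.80 and 54.6 ± 4.598 with overlapping ranges. IL18, a cytokine of the inflammasome, had 54.6 ± 1.98 FPKM and LIF, a cytokine of the IL-6 family, 52.0 ± 2.58. CXCL5 was more than any other member of the list in every library. IL6 itself was at 7.09 ± 0.713, and IL1B, at 0.459 ± 0.0863, was under the threshold. MIF was listed at 0.0473 FPKM on average, with 61.9% of its exonic length overlapped by another gene.

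Of 40 growth factors and hormones 30 were expressed (75.0%). The glycoprotein hormones STC2 and STC1 had 132, 163 and 142 and 72.7, 90.2 and 78.6 FPKM, both highest in replicate 2. The EGF receptor ligands EREG (136, 134 and 133 FPKM) and AREG (71.5, 64.2 and 65.7) were the highest of that family, with TGFA at 5.87 ± 0.172 and HBEGF at 4.18 ± 0.914. The Wnt inhibitor DKK1 had 97.9, 81.2 and 96.6 FPKM, and GDF15, a stress hormone, 77.1, 83.6 and 73.7. NRG1, a ligand of ERBB3, had 17.3, 17.2 and 17.2 FPKM, while ERBB3 itself had 0.522 ± 0.0216.

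Of 20 secreted proteases and inhibitors 13 were expressed. PLAU, the urokinase, had 121, 110 and 108 FPKM, and the metalloprotease inhibitors TIMP1 (55.1 ± 1.58) and TIMP2 (53.5 ± 1.33) and the cathepsin CTSB (43.4 ± 1.30) were lower. The metalloproteases in this list, which holds only part of the family, were low, with MMP1 highest of them at 4.16 ± 0.0625 and MMP9 at 0.0474 ± 0.0144. Of 24 matrix genes 19 were expressed, led by TGFBI (121 ± 7.36) and the laminin chains LAMC1 (65.0 ± 0.358), LAMB1 (30.03 ± 0.457) and LAMA5 (29.1 ± 1.28). Of 7 IGF binding proteins 6 were expressed, with IGFBP4 at 227, 206 and 220 FPKM, IGFBP3 at 87.9, 86.7 and 68.9 and IGFBP1 at 66.7, 75.8 and 63.3.

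Of the genes for antigen presentation and immune checkpoints 13 of 20 were expressed. B2M, the light chain of class I molecules, had 105, 104 and 104 FPKM, whereas the heavy chains HLA-C (20.7 ± 1.30) and HLA-B (3.53 ± 0.327) were lower. HLA genes vary between people, and reads of alleles unlike the reference can be lost. The class II gene HLA-DRA was listed at 0 and its activator CIITA averaged 0.0751 FPKM. NT5E, which makes adenosine, had 63.3 ± 1.49 FPKM and CD274, which encodes PD-L1, 1.11, 1.52 and 1.46. Of 20 cancer-testis antigens, PRAME (24.4 ± 1.61) and MAGEA6 (2.07 ± 0.223) were expressed.

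Of 15 genes used by viruses to enter cells 10 were expressed. The protease CTSL had 110, 102 and 104 FPKM, the coreceptor NRP1 55.6 ± 1.20 and the aminopeptidase ANPEP 30.03 ± 1.19. The protease TMPRSS2 was at 0, 0 and 0.00748 FPKM. Of 17 xenobiotic enzymes and their regulators 10 were expressed. CYP24A1, which breaks down vitamin D, was highest at 181, 160 and 192 FPKM, then the glutathione transferase GSTP1 (94.4 ± 1.39) and the methyltransferase NNMT (73.4 ± 3.10). CYP1A1 (0.423 ± 0.0804) was under the threshold, and the aryl hydrocarbon receptor AHR (8.004 ± 0.586) was expressed. A single enzyme does not give the activity of this receptor.

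The 4 HOX clusters, which hold regional identity along the body axis, were expressed in part. In HOXB 7 of 10 genes were expressed, led by HOXB7 (14.1, 12.7 and 13.4 FPKM) and HOXB9 (8.30, 8.73 and 8.63). In HOXC 5 of 9 were, from HOXC6 (1.81 ± 0.249) to HOXC8 (2.78, 2.58 and 4.16), and in HOXD 3 of 9, HOXD10 (2.74 ± 0.272), HOXD8 (1.86 ± 0.187) and HOXD9 (1.39 ± 0.0942). In HOXA 3 of 11 were, among them HOXA5 (1.85 ± 0.121) and HOXA3 (1.56 ± 0.165). HOXD1, HOXD3 and HOXB1 were listed at 0, and exonic overlap was 58.1% for HOXD1 and 74.1% for HOXD3.

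The longest runs of silent genes held many members of multigene families, although they cover only a small part of the 5932 genes under 0.1 FPKM. A run was taken as consecutive protein-coding genes under 0.1 FPKM in all 3 libraries. The longest held 65 genes on chromosome 11, from OR4B1 to LRRC55 (48216810 to 57191717, GRCh38), and 57 of them were olfactory receptors, the odour sensors of the nose. Next came 47 genes on chromosome 1 from NLRP3 to LYPD8 (247416156 to 248755739), with 42 olfactory receptors, and 39 on chromosome 8 from DEFA6 to USP17L3 (6924693 to 7977985), with 12 beta-defensins, which are antimicrobial peptides. Runs of 36 genes lay on chromosome 21 from GRIK1 to KRTAP19-8 (29536933 to 31038476), 33 of them keratin-associated proteins of hair, and on chromosome 1 from LCE3C to PGLYRP4 (152600662 to 153348840), with 16 late cornified envelope genes of skin.

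Over the genome, none of 389 olfactory receptors, 94 keratin-associated proteins, 39 beta-defensins and 19 late cornified envelope genes was expressed. In contrast 289 of 518 zinc finger genes named ZNF (55.8%) and 185 of 377 solute carriers (49.1%) were expressed, close to the 52.2% of all genes, and 80 of 85 ribosomal protein genes (94.1%) were. The share of expressed genes ran from 45.5% on chromosome 11 to 58.0% on chromosome 14, apart from chromosome 21 (37.0%) and X (40.7%).

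Promoter sequences were compared between classes of level. Over the 8510 expressed genes with a RefSeq promoter, the median ratio of observed to expected CpG was 0.835, and over the 4126 genes under 0.1 FPKM in all 3 libraries it was 0.336. The letters TATAAA were found on the gene's own strand or its complement in 7.83% of the former and 21.7% of the latter, beside 12.4% of all 15301. Among the 831 genes at 30 FPKM or more in all 3 libraries the share with TATAAA was 11.9%, higher than the 7.38% of genes between 1 and 30 FPKM.

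The spread between the 3 libraries rose above that of counting with the level of the gene. Over 11907 expressed nuclear genes with an annotation the median coefficient of variation (CV, the SD as a percent of the mean) was 4.91%, and over the 3653 protein-coding genes of mean 10 or more it was 3.36%. Of the latter 74.0% had a CV under 5%, and 9 genes had one of 20% or more. In 10 equal groups of the expressed genes, from the lowest to the highest level, the median CV fell from 8.64 to 2.99%, while the median expected from counting read pairs alone fell from 7.85 to 1.29%. The median over genes of the variance divided by that of counting was 1.35, where counting alone gives 0.693, and it rose from 0.754 in the lowest group to 3.40 in the highest. Counted in single reads in place of pairs it ran from 1.51 to 6.79, so whether low genes spread more than counting gives depends on the unit, which the values do not settle. The correlation of log2 values across genes between pairs of libraries was 0.995 to 0.996, over genes that are not independent, and 99.6% of genes were within 2-fold in each pair.

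The steadiest genes of mean 10 or more were COX7A2L, a factor of respiratory supercomplexes (25.7, 25.7 and 25.7 FPKM), and VPS25, of the endosomal sorting machinery (21.9, 21.9 and 21.9). SS18, LAMP2, ZMAT2, RPS6, GLG1 and TIAL1 followed, each with a CV under 0.2%. With 3 libraries some genes fall together by counting alone.

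Several of the genes of largest spread are known to answer to low oxygen. ADM, the vasodilator peptide adrenomedullin, had 62.2, 109 and 72.6 FPKM (CV 29.9%), ANGPTL4, an inhibitor of lipoprotein lipase, 46.7, 77.2 and 62.0, and HILPDA, a lipid droplet protein, 20.8, 32.8 and 25.6. SLC2A3, a glucose carrier, had 23.3, 35.0 and 25.5 FPKM, PFKFB3, which speeds glycolysis, 72.6, 113 and 93.2, and PPP1R3C, a glycogen regulator, 15.3, 21.9 and 15.7. MAFK (CV 21.4%) was also among the 8 of largest CV. Replicate 2 was the highest library, and replicate 1 the lowest, in each of the genes named here.

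Of the 30 genes of largest CV, 26 were highest in replicate 2 and 23 lowest in replicate 1, beside 36.4% and 35.5% of all 3653 genes. A list of 28 hypoxia response genes, drawn up after these genes had been seen and partly from them, had 27 expressed members. Of these 26 were highest in replicate 2, with LDHA the exception, and 26 were lowest in replicate 1, with LOX the exception. Their median ratio of replicate 2 to the mean of the other libraries was 1.27, beside 0.998 over all expressed genes. The pyruvate dehydrogenase kinase PDK1 had 2.77, 4.39 and 3.28 FPKM, the carbonic anhydrase CA9 16.6, 22.4 and 19.1, and VEGFA, the vascular growth factor, 15.9, 21.0 and 17.1. For an immediate early list drawn up the same way, 18 of 19 expressed members were highest in replicate 2, with a median ratio of 1.30, among them JUN (34.3, 48.6 and 37.3) and EGR1 (10.96, 14.96 and 11). Both lists were drawn partly from genes of large spread, most of them highest in replicate 2. These counts and ratios are thus in part fixed by that choice.

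Other lists were highest elsewhere. Of 40 NRF2 targets 24 were highest in replicate 1 and 25 lowest in replicate 2, beside 30.2% and 35.5% of all expressed genes, as for the glutathione peroxidase GPX2 at 29.1, 21.2 and 22.9 FPKM. Of the expressed cytokines and chemokines 12 of 17, and of the hepatocyte genes 7 of 8, were highest in replicate 1. Read totals and mitochondrial shares, given above, did not put replicate 2 at an extreme in the first and put it lowest in the second. Their part in these patterns was not tested.

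**Figure D5:**
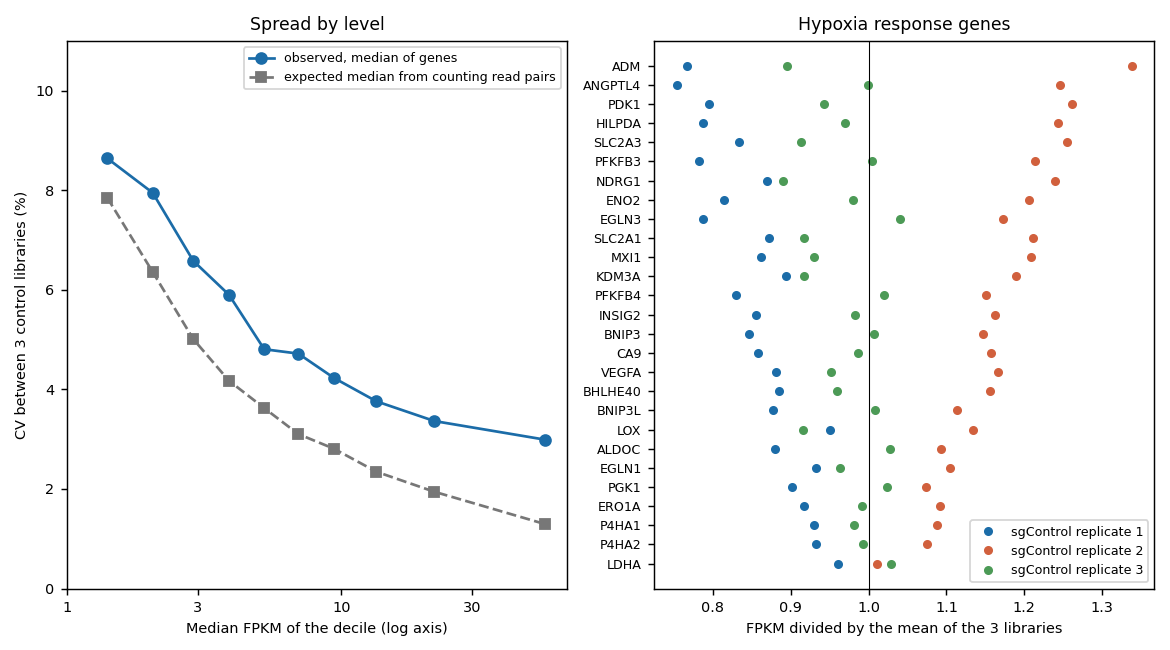
Left, median CV between the 3 control libraries (%) against the median FPKM (log axis) of 10 equal groups of the expressed genes, with the median expected from counting read pairs (dashed). Right, FPKM of 27 hypoxia response genes in each library divided by the gene's mean. Replicate 2 is to the right of 1 for all 27 genes and highest for 26. The list was drawn up partly from the genes of largest CV.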

How the data were processed

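RNA from A549 cells was made into SMARTer mRNA-seq libraries, per the labels' protocols. The authors deposited FPKM, per the file headers, in a table with a column for each library. Columns written sgNC were read as sgControl with the same number, and 0 columns were left unused for lack of a sample. The submitters' processing notes name the mouse builds GRCm38 and mm10, but all 62700 IDs match human Ensembl genes. The aligner, counter, strand setting and annotation were not given in the sources used here.

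Gene types, lengths of merged exons, coordinates and exonic overlap came from GENCODE 29 (58207 genes matched), which may differ from the authors' annotation. Read totals were recovered from the spacing of low values with those lengths: 63.7 to 64.7% of low genes gave whole reads within 0.001, and 60.6 to 61.5% of these whole values were even. Read pairs (18127904, 19760071 and 20285379) were taken as the unit of counting, although the rest were odd, and single reads were the alternative. Depth recovery and the dispersion were tested on simulated data.

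Genes named are the 25 most abundant nuclear coding genes, 5 noncoding genes, the 6 highest and the markers under 0.1 FPKM of each list, the 8 of largest and of smallest CV, genes within 1.5 Mb of CDKN2A and the 5 longest silent runs; others were picked with their values seen. The lists and members were chosen with earlier results of these data known. TRIM16L has 2 IDs, and the higher was used. Python 3.11.15 with numpy 2.4.6 and pandas 2.3.3 was used. Alternatives were other thresholds, scalings, filters and leaving out each library. Some genes of the lists are counted with them but not reported here by name.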

Additional observations from a re-analysis of the deposited data

How the results depend on the processing

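The count of expressed genes, 12083, stayed within 1.5 times under every alternative run. It ran from 9957 at 2 FPKM to 16793 with nuclear genes scaled to a fixed sum. The same held for the 337 expressed members of the 37 lists (295 to 398), the longest silent run (54 to 66 genes) and the promoter shares. The share of the first 25 genes was 9.91 to 9.94% with 1 library left out. Scaling cannot change that share, because it is a ratio within each library. The median CV of 4.91% moved: it was 3.77 to 4.18% with 1 library left out, 6.50% after scaling to nuclear genes, which brings more low genes over the threshold, 3.43% for genes of mean 10 or more, 24% for all genes above 0, and 4.18% from the SD of log2(FPKM + 1). The median dispersion was 2.70 counted in read ends, a choice added after seeing the data. Counts of small lists moved more. Without replicate 2 airway secretory genes had 1 expressed member, and without replicate 3 fibroblast genes had 2. After scaling to nuclear genes 7 of 37 lists moved: endoderm factors had 16, HOXA genes 8, airway secretory and fibroblast genes 3 each, ciliated genes and leukocytes 2 each and neuroendocrine genes 1. At 0.5 FPKM 5 lists moved: HOXA genes had 7, fibroblast genes 3, airway secretory genes and leukocytes 2 each and ciliated genes 1. At 2 FPKM 7 moved: HOXB genes had 4, HOXC genes 3, HOXA, HOXD, basal and cancer-testis genes 1 each and leukocytes 0. Scaling to nuclear genes also moved 539 of 586 gene levels by more than their SD, since it multiplies all values of a library by 1 factor. No paired analysis was possible because there is a single group and no result comes from a test. Depth limits genes at 0, and exonic overlap and close copies limit them further.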
